A study of Caenorhabditis elegans with 4 samples.

Results

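The regions described here are peaks called for ZTF-4 in the central parts of 4 autosomes of the nematode Caenorhabditis elegans, II, III, IV and V. The word site below means such a peak, and binding at each of them was not tested. A site belongs to the group when the midpoint of its peak in the combined peak list lies in the middle 50% of its chromosome, and 381 of the 855 combined peaks do. The arms of the same chromosomes (the outer 25% at each end) held 211 peaks and the X chromosome held 129, and both serve for comparison. Because no sequence of the genome build was used, each chromosome was taken to end at the farthest peak in any list. The centres then ran from 3756522 to 11269563 on II, from 3441034 to 10323099 on III, from 4320491 to 12961471 on IV and from 5195410 to 15586229 on V, all in WormBase build WS180.

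The sites come from chromatin immunoprecipitation and sequencing of hermaphrodites at L1, the first larval stage, and the series holds 2 ChIP libraries and 2 input libraries. All libraries are from strain OP322. It is mutant for unc-119 (allele ed3) and carries the transgene wgIs322, in which ztf-4 is fused to TY1, EGFP and FLAG tags and which also holds a rescuing copy of unc-119, so mutation and marker are shared by ChIP and input. The transgene entered by biolistic transformation, the strain was not outcrossed, and the genotype lists no mutation of the native ztf-4 gene. Growth was at 20 °C in the protocol, while the stage label carries 26 °C. Chromatin came from whole larvae, so strong binding in few cells and weak binding in many cannot be told apart.

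ZTF-4 is a zinc-finger protein, a class in which small zinc-holding folds contact nucleic acids. The autosomes of this worm are divided into a central domain and 2 arms. In general the centres recombine rarely and carry many widely expressed and conserved genes, and the arms recombine more often and hold more repeats and more methylated histone H3 lysine 9, a mark of silent chromatin. The chromosomes are holocentric, so the word centre does not refer to a centromere.

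The files used here are peak lists without read counts, and the depth behind each list is unknown. The combined list holds 381 peaks in the centres, the list of replicate 1 holds 157 and that of replicate 2 holds 176. Each peak carries a q-value given by the authors' peak caller, which ranks peaks within its own list. The labels do not say whether the replicates came from separate cultures, so agreement between the lists may be technical. No gene names accompany the peaks, and genes near them were not analysed here.

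Density differed between the 4 centres, and the centre of III was the densest in every list. This was not particular to its centre, because the arms of III were also the densest arms in every list. They held 8.43 combined peaks per Mb, against 8.1 in the arms of IV, 5.72 in those of II and 3.85 in those of V. The centre of III held 116 combined peaks, or 16.9 per Mb. The centre of IV held 96 (11.1 per Mb), that of V 99 (9.53 per Mb) and that of II 70 (9.32 per Mb). In replicate 1 the densities were 6.97 per Mb on III, 5 on V, 3.59 on IV and 3.46 on II. In replicate 2 they were 8.28 on III, 5.06 on II, 4.52 on V and 3.93 on IV. The order below III thus differed between the lists, and only the first place was common to all of them. A count of 26 to 57 peaks per centre in a replicate list carries wide counting error, so the order below III is not settled by these lists.

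All 4 centres held more combined peaks than the arms of the same chromosome, which are equally long by construction. On V the numbers were 99 in the centre and 40 in the arms, so 71.2% of its peaks were central (95% exact binomial interval 62.9 to 78.6%). On III they were 116 and 58 (66.7%, interval 59.1 to 73.6%), and on II 70 and 43 (61.9%, interval 52.3 to 70.9%). On IV they were 96 and 70 (57.8%, interval 49.9 to 65.4%), which is the smallest surplus of the 4 and whose interval reaches an even division. Over the 4 chromosomes the density was 11.4 per Mb in the centres and 6.31 per Mb in the arms, a ratio of 1.81. The ratio was 1.60 in replicate 1 (157 and 98 peaks) and 1.60 in replicate 2 (176 and 110 peaks), so it varied little between the lists. Combined peaks covered 390.2 kb of the centres, or 1.17% of their length, and 212 kb of the arms, or 0.635%.

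**Figure D1:**
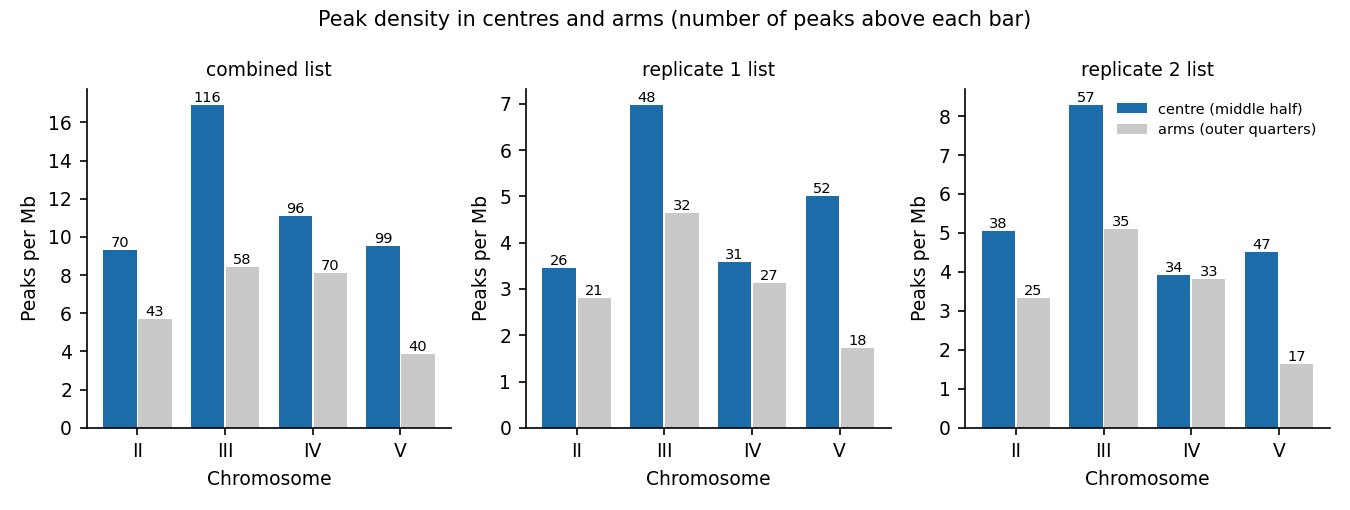
Peaks per Mb (vertical axes, scaled to each list) in the centre and in the arms of chromosomes II to V (horizontal axis), for the combined, replicate 1 and replicate 2 lists, with the number of peaks above each bar. The centre bar is the higher one on every chromosome in every list, with the highest ratio on V (99 and 40 combined peaks) and nearly no difference on IV in replicate 2 (34 and 33 peaks).

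The surplus on V and the surplus on IV differed in how they held up in the single lists. On V the replicate 1 list had 52 peaks in the centre and 18 in the arms, and the replicate 2 list had 47 and 17. On IV the corresponding numbers were 31 and 27 in replicate 1, and 34 and 33 in replicate 2. Almost all of the surplus on IV came with the weaker peaks of the combined list. When the 855 combined peaks were divided into 5 equal groups by q, the first 3 groups (q up to 6.28e-07) held 45 central and 43 arm peaks on IV, and the last 2 held 51 and 27. The central share on IV was 65.4% in the weaker groups and 51.1% in the stronger ones, a difference of 14.2 percentage points (95% Newcombe interval -0.777 to 28.3).

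The same division gave a difference larger than counting error on III, and differences within it on II and V. On III, 51 of 64 weaker peaks were central (79.7%), against 65 of 110 stronger ones (59.1%), a difference of 20.6 points (interval 6.24 to 32.9). On II the shares were 61.4% of the weaker and 62.3% of the stronger peaks (difference -0.955 points, interval -19.1 to 16.5). On V they were 67.8% of the weaker and 73.8% of the stronger peaks (difference -5.95 points, interval -21.2 to 8.96). Over the 4 chromosomes the shares were 69.0% and 61.1%, with a difference of 7.88 points (interval 0.0492 to 15.4). The division at the third group was chosen after the values were seen, and whether the shift differs between chromosomes was not tested.

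Within a centre the peaks were not evenly spread. Each centre was cut into 4 stretches of equal length. On V the stretch from 10390820 to 12988524 held 42 of the 99 peaks (16.2 per Mb), and the first stretch held 15 (5.77 per Mb). Replicate 1 had 20 peaks in that stretch of V and replicate 2 had 19, against 11 and 9 in the first. The centre of III was the most even, with 32, 29, 31 and 24 peaks. On II the 2 inner stretches held 20 and 23 peaks and the outer ones 12 and 15. On IV the last stretch, from 10801227 to 12961471, was the fullest with 31 peaks, and the stretch before it held 18. Windows of 1 Mb laid from each lower bound held between 4 and 22 combined peaks, with a median of 11 over 31 windows. The fullest, from 10195410 to 11195409 on V, had 22 combined peaks, 11 in replicate 1 and 10 in replicate 2. The first window on II, from 3756522 to 4756521, had 4 combined peaks and none in either replicate list.

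**Figure D2:**
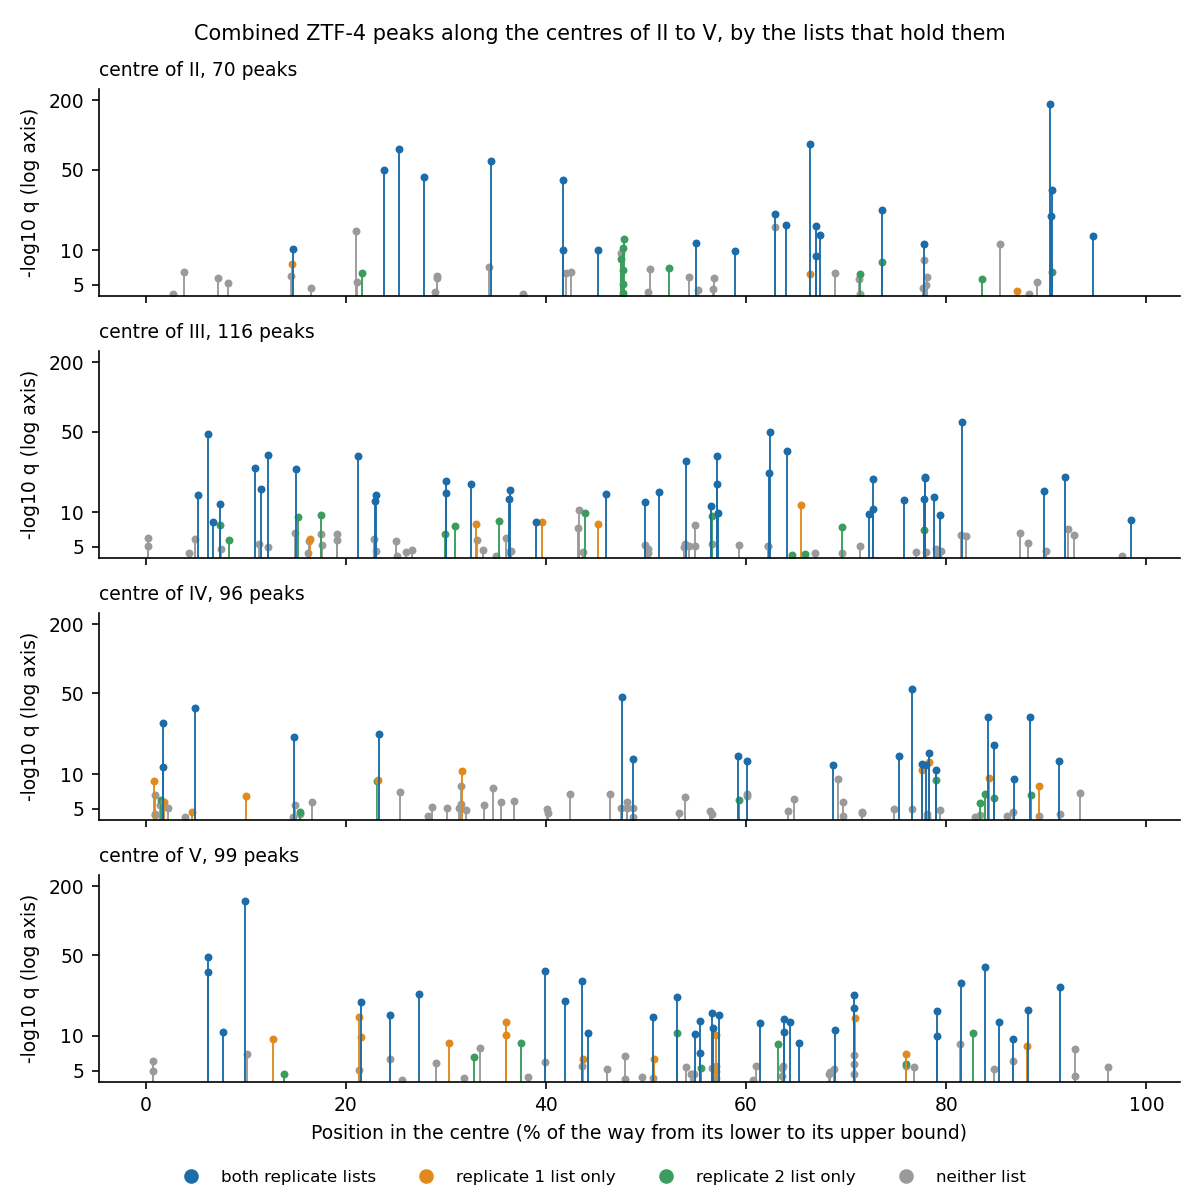
Combined peaks along the 4 centres. The horizontal axis is the position as a percentage of the way from the lower to the upper bound of the centre, the vertical axis is -log10 of the q-value on a log scale, and colour shows which replicate lists hold the peak. Peaks found in both lists reach the greatest heights on every chromosome, and the middle of IV holds mainly low peaks found in neither list.

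The strongest central sites were broad regions on II and V. The smallest q of the centres belonged to II, 10541824 to 10554289 (12466 bp, q = 6.84e-186, rank 3 of the combined list). Replicate 1 called it as 1 peak of 11287 bp with q = 1.81e-101, the best of that list. Replicate 2 called it as 2 peaks with a summed width of 10794 bp, the better with q = 1.33e-77, rank 2 of that list. The region was the first of a group of 4 peaks reaching to 10563667, of which 3 were found in both lists. The second central site by q was V, 6220746 to 6229991 (9246 bp, q = 1.12e-147, rank 4), which each replicate list divided into 2 peaks, with best values of q = 5.72e-66 in replicate 1 (rank 6) and q = 5.81e-72 in replicate 2 (rank 4). Both sites therefore stood at or near the top of each list on its own.

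On II the next sites were 8742980 to 8748082 (5103 bp, q = 1.31e-83), 5660885 to 5663861 (2977 bp, q = 1.1e-76), 6345940 to 6349496 (3557 bp, q = 2.26e-60) and 5543365 to 5544429 (1065 bp, q = 8.02e-50). The first of these stood higher in replicate 1 (rank 7, q = 1.06e-48) than in replicate 2 (rank 27, q = 9.51e-26). The next was at rank 13 in replicate 1 (q = 7.45e-39) and rank 8 in replicate 2 (q = 5.01e-43). The last, with 1080 bp in replicate 1 and 1063 bp in replicate 2, had nearly the same edges in all lists.

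On V the sites after the first were weaker by a wide step in q. They were 5838288 to 5839922 (1635 bp, q = 2.76e-49), 13907387 to 13909803 (2417 bp, q = 1.06e-40), 9342923 to 9344705 (1783 bp, q = 1.56e-37) and 5840333 to 5846244 (5912 bp, q = 2.67e-36). The first and the last of these are neighbours, with the first ending at 5839922 and the last starting at 5840333. The broad neighbour was called with 4809 bp in 2 peaks in replicate 1 (best rank 57) and with 1455 bp in 2 peaks in replicate 2 (best rank 136).

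The centres of III and IV had no site as strong as the best site of II or of V. On III the smallest q was 3.71e-61, for 9050822 to 9054237 (3416 bp, rank 19), which replicate 1 divided into 2 peaks and replicate 2 into 3. It was followed by 7736517 to 7738910 (2394 bp, q = 2.65e-50), 3866862 to 3867840 (979 bp, q = 1.56e-48), 7854411 to 7854840 (430 bp, q = 1.08e-34) and 4280323 to 4282777 (2455 bp, q = 4.28e-32). The peak at 3866862 was narrow for its q and stood at rank 25 in replicate 1 and rank 12 in replicate 2. The peak at 7854411 had the smallest width of the 20 sites named by q, with 345 bp in replicate 1 and 469 bp in replicate 2.

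On IV the smallest q was 2.24e-55, for 10933010 to 10936525 (3516 bp, rank 25), with rank 36 in replicate 1 and best rank 35 in replicate 2. Then came 8430677 to 8433324 (2648 bp, q = 5.58e-47), 4749466 to 4750391 (926 bp, q = 5.08e-38), 11954267 to 11956853 (2587 bp, q = 8.49e-32) and 11592830 to 11594804 (1975 bp, q = 1.13e-31). The site at 4749466 was called in the replicates as 400 bp and 372 bp, less than the combined width. All 20 sites, the 5 best of each centre, were found in both replicate lists. They were picked by q, and 67 of the 70 members in the best of the 5 groups by q were in both lists.

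The members are 44.6% of the combined list. Of its 20 best peaks 5 were members (3 on II, 1 on III and 1 on V), and of its 100 best 38 were. In the best of the 5 groups by q, which holds 20% of the series by construction, 70 of the 381 members were found (18.4%, interval 14.6 to 22.6%), against 45 of 211 arm peaks (21.3%, interval 16.0 to 27.5%) and 34 of 129 X peaks (26.4%, interval 19.0 to 34.8%). The weakest 2 groups held 169 members (44.4%, interval 39.3 to 49.5%), 76 arm peaks (36.0%, interval 29.5 to 42.9%) and 52 X peaks (40.3%, interval 31.8 to 49.3%). The median q was 2.66e-07 in the centres, 4.08e-08 in the arms and 1.41e-08 on X. Among the centres it ran from 2.16e-08 on V through 1.56e-07 on II and 1.73e-07 on III to 1.31e-06 on IV.

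In the combined list the median peak widths lay close together in the 4 centres, but in the single lists they differed more. The median was 670 bp over all members, with an interquartile range of 447 to 1145 bp. It was 716.5 bp on II, 663.5 bp on III, 654 bp on IV and 647 bp on V. In replicate 1 the medians were 737 bp on II, 723 bp on III, 557 bp on IV and 847 bp on V. In replicate 2 they were 934.5 bp on II, 627 bp on III, 692 bp on IV and 641 bp on V. The arms had a median of 725 bp in the combined list and X one of 696 bp. In the replicate lists the central peaks had medians of 722 bp in replicate 1 and 683 bp in replicate 2, against 785 bp and 670 bp in the arms, so the sign of the difference between centres and arms was not the same in both lists.

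Wide peaks were most numerous on II and V. There were 17 members of at least 3000 bp (4.46%), beside 3.86% of all 855 combined peaks. Of these, 6 lay on II, 6 on V, 3 on III and 2 on IV. They made up 35.2% of the covered sequence in the centre of II and 28.5% on V, but 10.2% on III and 8.95% on IV. These shares lean on single peaks. On II 1 peak gave 12466 bp of the 31.7 kb in wide peaks, and on V 1 peak gave 9246 bp of 30.6 kb. In the arms wide peaks made up 33.7% on II, close to its centre, 11.6% on V (1 peak), 10.8% on III and none on IV. Of the 17, 15 overlapped peaks of both replicates and 16 were in the best of the 5 groups by q. The other two were II, 5335261 to 5338738 (3478 bp, q = 2.71e-15), found in neither list, and II, 7345148 to 7349064 (3917 bp, q = 2.53e-13), found in replicate 2 as 3 peaks. The widest member was on II and on V the site with the smallest q, on III 7728117 to 7732360 (4244 bp, q = 1.14e-22) and on IV 4467987 to 4471865 (3879 bp, q = 2.24e-28).

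Wider members had smaller q-values (Spearman's rho between width and -log10 q of 0.56 over 381 peaks, 0.43 on IV and 0.70 on V). Both measures come from the same interval, so they are not independent, and the correlation is a description. At the narrow end 118 members (31.0%) were under 500 bp, beside 29.6% of all combined peaks. A single member, V, 10168620 to 10168633, was 14 bp wide (q = 5.84e-05) and was found in neither replicate list; it was singled out after its width was seen.

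**Figure D3:**
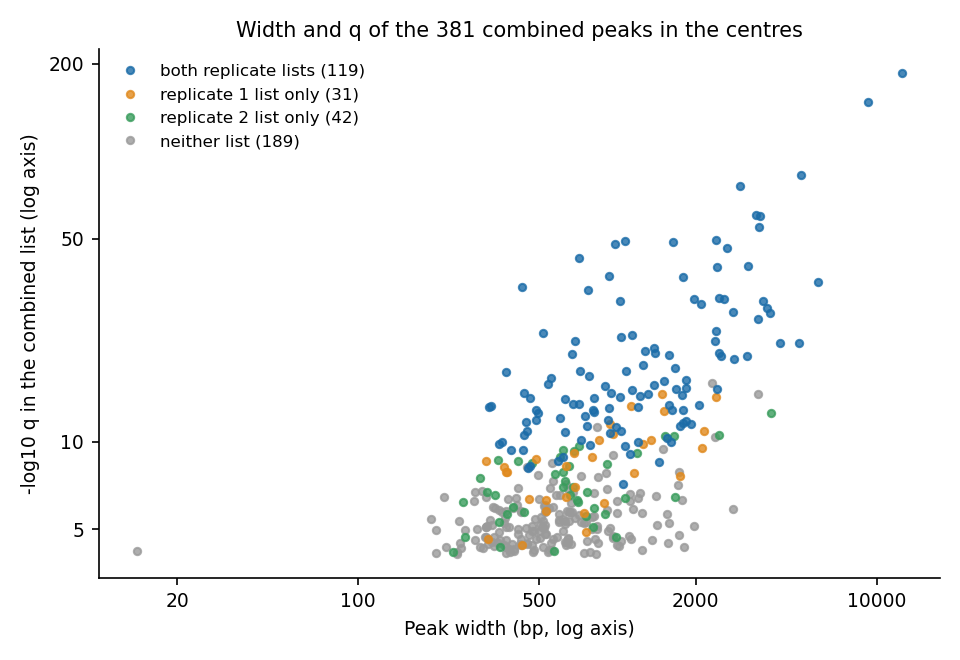
Width (horizontal axis, bp, log scale) and -log10 q in the combined list (vertical axis, log scale) of the 381 central peaks, coloured by the replicate lists that hold them. Peaks found in both lists (119) occupy the upper and right part and those in neither (189) the lower left, where a single peak of 14 bp stands apart.

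Overlap of the central peaks with the replicate lists was counted with a minimum of 1 bp. The series holds only 2 ChIP libraries, so the combined list is not independent of the replicate lists. Overlap with them is therefore not an independent second finding of a peak. Of the 381 members 119 overlapped peaks in both lists, or 31.2% (interval 26.6 to 36.2%), beside 33.2% of all 855 combined peaks. Another 73 were in 1 list (19.2%, beside 18.4%), 31 of them in replicate 1 and 42 in replicate 2, and 189 were in neither (49.6%, interval 44.5 to 54.7%, beside 48.4%). These shares are near those of the whole list. In the arms 79 of 211 peaks were in both lists (37.4%) and 94 in neither (44.5%). The difference in the share in both lists was -6.21 points between centres and arms (interval -14.2 to 1.69) and -8.3 points between centres and X, where 39.5% were in both (interval -18.0 to 1.05). Both intervals include 0.

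The centre of IV had the lowest share of members in both lists. There 21 of 96 members were in both lists (21.9%, interval 14.1 to 31.5%) and 56 were in neither (58.3%, interval 47.8 to 68.3%). On V 35 of 99 were in both (35.4%, interval 26.0 to 45.6%), on III 41 of 116 (35.3%, interval 26.7 to 44.8%) and on II 22 of 70 (31.4%, interval 20.9 to 43.6%). The intervals of the 4 centres overlap. The share in both lists in the centre minus that in the arms of the same chromosome was -12.9 points for III (interval -27.9 to 2.37), -8.12 points for IV (-21.7 to 5.12), -5.78 points for II (-23.6 to 11.5) and 0.354 points for V (-17.4 to 16.5). None of these differences exceeds its counting error.

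**Figure D4:**
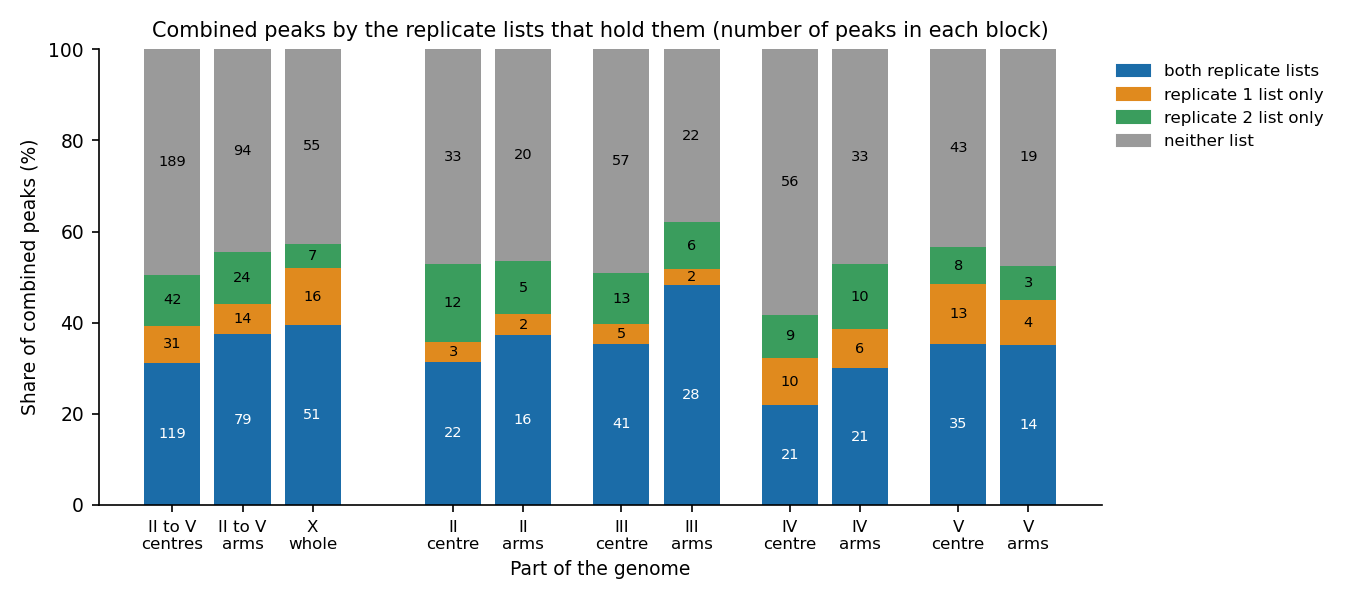
Share of combined peaks (vertical axis, percent) found in both replicate lists, in 1 of them or in neither, for the centres, the arms and X, and for the centre and arms of each chromosome; numbers in the blocks are peaks. The centre of IV has the largest block of peaks in neither list (56 of 96) and the arms of III the largest block in both (28 of 58).

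Since support falls with q, centres and arms were also set side by side within the groups by q. In the best group by q, 67 of 70 members (95.7%) and 43 of 45 arm peaks (95.6%) were in both lists. In the second group the numbers were 47 of 70 (67.1%, interval 54.9 to 77.9%) and 33 of 43 (76.7%, interval 61.4 to 88.2%), and in the third 5 of 72 (6.94%) and 3 of 47 (6.38%). In the fourth and the fifth group 0 of 88 and 0 of 81 members were in both lists, which allows shares of up to 4.11% and 4.45% (exact binomial upper bounds), and 0 of 35 and 0 of 41 arm peaks. The only members of the best group that were in neither list were on II, the sites 8478231 to 8480539 (2309 bp, q = 1.02e-16, rank 146) and 5335261 to 5338738 (rank 169). The best members in neither list on the other chromosomes stood lower, at rank 277 on III (6419185 to 6421557, q = 3.78e-11), rank 338 on IV (10294450 to 10295407, q = 9.01e-10) and rank 363 on V (13649767 to 13650326, q = 3.24e-09).

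Members in both lists were wider than those in neither, with a median of 1141 bp against 538 bp. Of the 119, 106 paired with exactly 1 peak in each replicate list, and 13 were divided by at least 1 list. The midpoints of the paired replicate peaks lay a median of 52 bp apart (upper quartile 127.5 bp, largest 772 bp), and 92 of the 106 (86.8%) were within 200 bp. The combined peak was wider than either replicate peak in 84 of the 106, with medians of 1040 bp in the combined list, 707 bp in replicate 1 and 695.5 bp in replicate 2. The order of the 106 sites by q was similar in the replicate lists, with Spearman's rho of 0.71 over all, 0.93 for II (19 sites), 0.70 for III (39), 0.70 for V (30) and 0.50 for IV (18). These correlations run over sites, which share a library, and are given as descriptions.

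Read from the replicate lists, 124 of the 157 central peaks of replicate 1 overlapped a replicate 2 peak (79.0%, interval 71.8 to 85.1%, beside 78.9% of that whole list), and 130 of the 176 of replicate 2 overlapped a replicate 1 peak (73.9%, interval 66.7 to 80.2%, beside 77.4%). By chromosome the shared part of the replicate 1 peaks was 89.6% for III, 88.5% for II, 71.2% for V and 67.7% for IV. For replicate 2 it was 83.0% for V, 77.2% for III, 67.6% for IV and 63.2% for II, so the order differed between the lists. All 157 central replicate 1 peaks and 174 of the 176 of replicate 2 had a combined peak. The exceptions were III, 6148016 to 6148559 (q = 4.63e-05), and IV, 11821891 to 11822604 (q = 4.75e-05), both near the end of the replicate 2 list.

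The central peaks were close together in groups and otherwise far apart. Between neighbouring members there were 377 gaps, with a median of 37.0 kb, a lower quartile of 3.23 kb and an upper quartile of 128 kb. The median gap was 25.9 kb on III, 39.1 kb on IV, 43.2 kb on V and 50.2 kb on II. This order did not hold in the single lists. In replicate 1 the median was 91.7 kb on IV, 92.5 kb on III, 145 kb on V and 182 kb on II. In replicate 2 it was 52.1 kb on IV, 63.6 kb on III, 116 kb on II and 149.5 kb on V. Gaps of up to 5000 bp were 31.0% of all (117 of 377, interval 26.4 to 36.0%), from 29.0% on II and 30.4% on III to 31.6% on V and 32.6% on IV. It was 25.6% in the arms (52 of 203, interval 19.8 to 32.2%) and 21.9% on X (28 of 128, interval 15.1 to 30.0%), and these intervals overlap that of the centres. In replicate 1 the share was 20.9% in the centres and 26.7% in the arms. In replicate 2 it was 26.2% and 23.5%, so the order was not the same in both lists. By centre it ran from 13.3% on IV to 27.5% on V in replicate 1. In replicate 2 it ran from 21.4% on III to 37.8% on II. In the combined list the centres differed more in the long gaps. Of all gaps in a centre, 20.9% exceeded 100 kb on III, against 27.4% on IV, 38.8% on V and 39.1% on II. In replicate 1 this share was also lowest on III (44.7%, against 46.7% on IV), but in replicate 2 it was lowest on IV (36.4%, against 42.9% on III). The smallest gap was 203 bp, and no list held a gap of 200 bp or less.

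**Figure D5:**
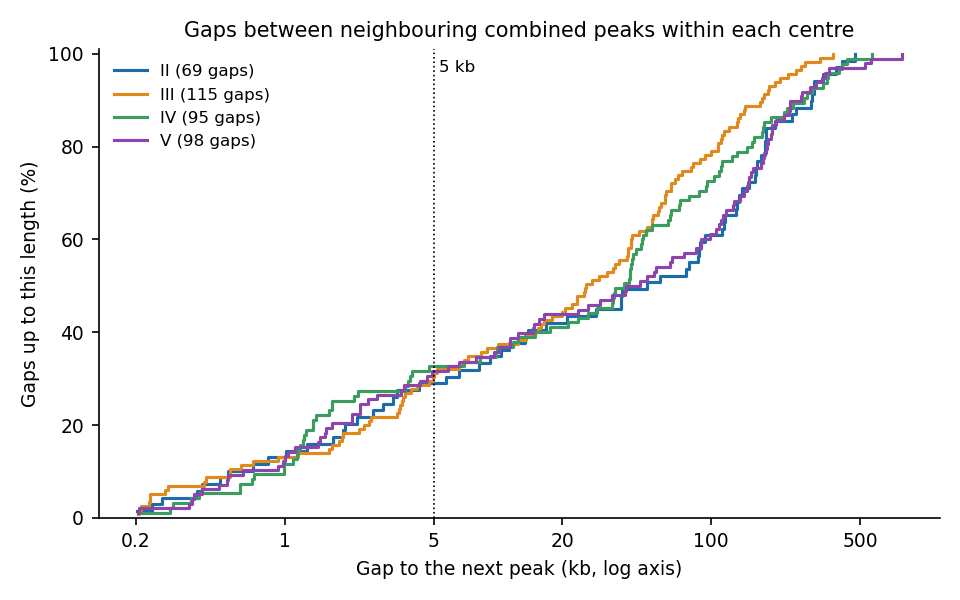
Cumulative share of gaps (vertical axis, percent) up to a given length (horizontal axis, kb, log scale) between neighbouring combined peaks within each of the 4 centres. The curves stand between 11.6% and 13% at 1 kb and between 29.0% and 32.6% at 5 kb. Between these lengths IV rises soonest, with a lower quartile of 1.89 kb against 3.56 kb on III. Above 20 kb the curves part, and III reaches a given share at shorter gaps than II or V.

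The longest stretches without a combined peak were 782 kb on V (6631120 to 7413104), 567 kb on IV (5754534 to 6321710), 474 kb on II (4377204 to 4851643) and 375 kb on III (9080397 to 9455544). None of them held a peak of either replicate list. Whether reads can be assigned to all of these stretches was not tested.

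Peaks joined by gaps of up to 5000 bp formed 264 runs, of which 181 were single peaks, 60 held 2 and 23 held 3 or more. Runs of 2 or more held 200 of the 381 members (52.5%), with 58.3% on IV, 52.5% on V, 50.0% on III and 48.6% on II, against 41.7% in the arms and 34.9% on X. In replicate 1 such runs held 37.6% of the central peaks and 39.8% of the arm peaks. In replicate 2 they held 42.6% and 36.4%, so the order of centres and arms was not the same in both lists. A fixed limit joins more peaks where they are denser. In the combined list the mean gap was 82.8 kb in the centres, 150.2 kb in the arms and 133 kb on X. Whether the centres hold more runs than their density alone would give was not tested. Members in runs were wider than single members (median 789.5 bp against 547 bp) and more often in the best group by q (46 of 200 against 24 of 181). They were in both lists in 68 of 200 cases (34.0%, interval 27.5 to 41.0%), against 51 of 181 single members (28.2%, interval 21.8 to 35.3%). Within the groups by q the order was the other way, but the intervals overlap, so no order is settled. In the best group it was 43 of 46 members in runs (93.5%, interval 82.1 to 98.6%) against 24 of 24 single ones (interval 85.8 to 100%). In the second it was 24 of 39 (61.5%, interval 44.6 to 76.6%) against 23 of 31 (74.2%, interval 55.4 to 88.1%). In the third it was 1 of 34 (2.94%, interval 0.0744 to 15.3%) against 4 of 38 (10.5%, interval 2.94 to 24.8%). Of the 23 runs of 3 or more, 17 had a peak of each replicate list somewhere in the run, and 1 had none. For runs of 2 the numbers were 33 and 17 of 60, and for single peaks 51 and 99 of 181. A run with more members has more places to meet a replicate peak, so these counts do not compare support.

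The fullest run of each centre showed different patterns. On V, 12548710 to 12557684 held 6 members (best q = 1.33e-23), and 2 of them were in both lists, 1 in replicate 1 alone and 3 in neither. On III, 8794595 to 8806504 held 5 members (best q = 6.58e-21), with 3 in both lists. On IV, 4467987 to 4476508 held 3 (best q = 2.24e-28), with 2 in both lists. It was 1 of 6 runs of 3 on IV, taken for its smallest q, and the others had 0 or 1 member in both lists. On II, 7336733 to 7349064 held 5 members (best q = 2.53e-13), all of them in replicate 2 alone, which had 7 peaks there. Of 117 neighbouring pairs within 5000 bp, 35 joined a member in both lists with a member in neither, 15 joined 2 members in both lists and 24 joined 2 in neither, in a set of members of which 31.2% were in both lists and 49.6% in neither. A single replicate peak bridged 1 of the 117 pairs.

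The replicate lists were less balanced on II with that run than without it. Replicate 2 had 38 central peaks on II and replicate 1 had 26, a ratio of 1.46. Without the run the numbers were 31 and 26, a ratio of 1.19, and the members found in replicate 2 alone numbered 7 rather than 12. On V the balance lay the other way, with 47 peaks in replicate 2 and 52 in replicate 1, and 8 members in replicate 2 alone against 13 in replicate 1 alone.

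The middle of the centre of IV had few replicate peaks for its number of combined peaks. Its 2 inner stretches, 6480736 to 10801226, held 42 members but 6 peaks in replicate 1 and 6 in replicate 2. Of the 42, 35 were in neither list (83.3%, interval 68.6 to 93.0%), against 21 of 54 in the outer stretches (38.9%, interval 25.9 to 53.1%), where the replicate lists had 25 and 28 peaks. The difference was 44.4 points (interval 25.2 to 58.9). The inner members also had larger q-values (median 2.74e-06 against 2.77e-07), and 7 of 42 were in the 2 best groups by q, against 19 of 54. Inner and outer stretches differed by less than counting error on II (-13.7 points, interval -35.3 to 9.80), III (-5.12 points, -22.5 to 12.7) and V (9.73 points, -10.5 to 28.2). The stretch was picked out after its values were seen. The inner members found in a replicate list stood between rank 38 and rank 534 of the combined list. The best of them was the second site of IV by q (8430677 to 8433324), at rank 47 in replicate 1 and 59 in replicate 2.

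No peak lay across a bound of the centres. The members nearest to a bound had midpoints between 15377 bp (III, 3456244 to 3456579) and 570177 bp (IV, 12391145 to 12391443) inside it, and the nearest peaks outside lay between 66873 bp (II, 11336056 to 11336816) and 782483 bp (II, 2973804 to 2974275) away. Of the 8 nearest members inside, 2 were in both lists and 5 in neither. Of the 8 nearest peaks outside, 4 were in both and 2 in neither. Among all 855 combined peaks 33.2% were in both and 48.4% in neither, and sets of 8 are too small to show a difference at the bounds.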

How the data were processed

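Peaks were deposited by the authors as intervals with a q-value for each peak, for the 2 ChIP libraries and as a combined list. Per the file headers the build is WormBase WS180 and the caller is named as PeakSeq. For the aligner, filters, depth, thresholds, use of input and making of the combined list, nothing is given in the sources used here. Titles decided the groups, because the description fields of ChIP and input libraries appear exchanged. The input libraries have no values here. The members and the lists of results were chosen with earlier results of these data known.

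Midpoints were placed by the length to the farthest peak. Overlap needed 1 bp, and gaps were counted between the end of a peak and the start of the next. Shares carry 95% Clopper-Pearson intervals and differences of shares 95% Newcombe intervals, which cover counting error only. No p-value was computed, because neighbouring peaks are not independent and 2 libraries allow no test between samples. Regions named are the 5 members with the smallest q of each centre, the widest, the fullest run, the longest gap, the best member in neither list and the peaks nearest the bounds. The interval code was checked on simulated lists with planted overlaps. Alternatives were the single lists, the better 50% by q, other bounds, other overlap rules and other gap limits. Python 3.11.15, NumPy 2.4.6, SciPy 1.17.1, pandas 2.3.3 and matplotlib 3.10.9 were used.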

Additional observations from a re-analysis of the deposited data

How the results depend on the processing

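Of 42 alternatives for the results pooled over the 4 centres, 27 stayed within the counting interval of the reported value. The ratio of density between centres and arms was 1.60 in each single list and 1.55 to 1.80 elsewhere. On single chromosomes it was above 1 in 27 of 28 alternatives, and below 1 on IV in the better 50% by q (0.943). The alternatives share peaks and are not independent. On IV every counting interval included 1, and other bounds gave ratios of 1.1 to 1.35, against 1.37 in the main setting. Some intervals on II and III also included 1, such as those of replicate 1 (0.67 to 2.31 on II, 0.939 to 2.42 on III). On V all intervals lay above 1. The share of members in both lists was 21.3% with a reciprocal overlap of 50%, 18.4% with midpoints within 200 bp, and 39.4 to 42.3% where a single list had to hold the peak; the share in neither was 57.0%, 60.6%, and 57.7 to 60.6%. These follow from a stricter rule or from asking for fewer lists. In the better 50% by q the median width was 1030 bp and Spearman's rho 0.84, and 19.0% of gaps were up to 5000 bp; the cause was not tested. That share of gaps was 12.5% with a limit of 1000 bp, 36.1% with 10000 bp and 20.9 to 26.2% in the single lists, which hold fewer peaks. The median width pooled over the 4 centres was 683 to 722 bp in the single lists. The count on II without its fullest run was chosen after seeing the data. No paired analysis was possible because only the ChIP libraries have peak lists among the files used. With depth unknown, the absence of a peak from a list does not show an unbound site.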
